A study of Rattus norvegicus with 12 samples.

Results

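The extracellular matrix of the heart is turned over by secreted and membrane-bound proteases and by the inhibitors that hold them in check. Across 12 RNA-seq libraries of rat cardiomyocytes, 9 genes of this system were followed by their symbols: the 4 tissue inhibitors of metalloproteinases (Timp1, Timp2, Timp3 and Timp4), the matrix metalloproteinases Mmp2 and Mmp14, the proteoglycan-cleaving enzymes Adamts1 and Adamts4, and Plat, which encodes tissue-type plasminogen activator. They are 9 of the 32883 genes in each library's table, and each is covered by 1 annotated transcript. Of the 9, 7 were among the 13793 genes tested, that is, with at least 1 rescaled FPKM (fragments per kilobase of transcript, scaled to the size of the library) in at least 2 libraries. Timp4 and Adamts4 lay below that filter.

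The cells were cardiomyocytes isolated from Sprague-Dawley rats aged 1 to 3 days. All groups had been plated at 40000 cells per cm2 in 7% serum, kept with 10 µM cytosine arabinoside (AraC), which acts against dividing cells, and then moved to medium with neither before treatment. For 24 h they then received 100 nM endothelin-1 (ET-1), an agonist of the Gq-coupled endothelin receptors, 10 µM phenylephrine (PE), an agonist of alpha-1 adrenergic receptors, or the acetic acid vehicle. Each treatment was combined with 1 µM JQ1, which displaces BET bromodomain proteins from acetylated chromatin, or with its DMSO solvent. The 6 groups were ET-1 plus JQ1, PE plus JQ1, vehicle plus JQ1, ET-1, PE and vehicle, the last 3 with DMSO, and each had 2 libraries. The sources used here give neither the sex of the rats nor whether hearts were pooled. Nothing in the labels ties the replicates to separate cultures or rats, and each p-value therefore reflects the spread between libraries alone, which may be technical.

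As background, each TIMP blocks the zinc-dependent active site of metalloproteinases. TIMP3 is held in the matrix and also inhibits ADAMTS enzymes, while TIMP2 has a second role at the cell surface, where together with the membrane protease MMP14 it brings about the activation of pro-MMP2. MMP2, or gelatinase A, cleaves denatured collagen and basement membrane collagen, and ADAMTS1 and ADAMTS4 cleave the large proteoglycans versican and aggrecan. Tissue-type plasminogen activator turns plasminogen into plasmin, which degrades fibrin and can activate metalloproteinases. In the heart, fibroblasts are a main source of MMP2, collagen and several of these regulators, and TIMP1 is induced in many models of cardiac stress.

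Promoter sequences (300 bases around the annotated start, RefSeq, build GRCr8) were at hand for 6 of the 9 genes: Timp1, Timp2, Timp3, Timp4, Adamts1 and Adamts4. A pair is shown, that of the gene that rose with both agonists and that of the gene that fell with JQ1. The Timp1 window is chrX:3771073-3771372 and the Adamts1 window is chr11:38427335-38427634, both on the minus strand and written 5′ to 3′.
Timp1: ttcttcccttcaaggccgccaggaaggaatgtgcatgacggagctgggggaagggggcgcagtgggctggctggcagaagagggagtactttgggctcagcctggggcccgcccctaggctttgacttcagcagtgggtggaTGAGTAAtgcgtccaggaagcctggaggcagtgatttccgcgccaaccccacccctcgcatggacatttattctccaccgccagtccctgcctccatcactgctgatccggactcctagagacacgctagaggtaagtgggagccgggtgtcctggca
Adamts1: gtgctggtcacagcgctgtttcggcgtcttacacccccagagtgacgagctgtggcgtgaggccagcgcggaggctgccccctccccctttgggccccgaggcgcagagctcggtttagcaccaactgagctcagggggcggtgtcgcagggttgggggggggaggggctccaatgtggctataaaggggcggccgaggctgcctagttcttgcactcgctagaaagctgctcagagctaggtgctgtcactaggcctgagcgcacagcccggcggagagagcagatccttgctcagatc
The capitals in the Timp1 sequence mark TGAGTAA, an AP-1-like element known from the mouse and human Timp1 genes, whose first base lies at position -108 from the start. Both strands of each promoter were searched for 3 motifs: the AP-1 site TGANTCA, the cyclic AMP response element TGACGTCA and TGAGTAA. The last was added after the sequences had been seen, and a stretch cannot match both it and TGANTCA. Of 33469 promoters of this length in the same table, 7.33% held TGANTCA, 1.83% held TGACGTCA and 2.9% held TGAGTAA. The Timp1 match was the 1 match in the 6 windows. A match is a description of the letters, and no match says only that these letters are not in the window.

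Coverage summed over transcripts came to 2.34 to 2.97 Gb per library, and no library was a copy of another. The cells expressed their defining genes: 9 of 10 cardiomyocyte markers were in the files, all 9 at 1 FPKM or more in every library, with sums of 11520 to 22900 rescaled FPKM. Fibroblast markers were present beside them (all 10 in the files, sums of 109 to 1338). Endothelial markers (7 of 8 in the files, sums of 0.39 to 6.67) and macrophage markers (8 of 8, sums of 0.432 to 9.004) were low. Mural and smooth muscle markers (9 of 9) summed to 391 to 883, a list whose Acta2, Cnn1 and Tagln are also expressed by immature cardiomyocytes.

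**Figure D1:**
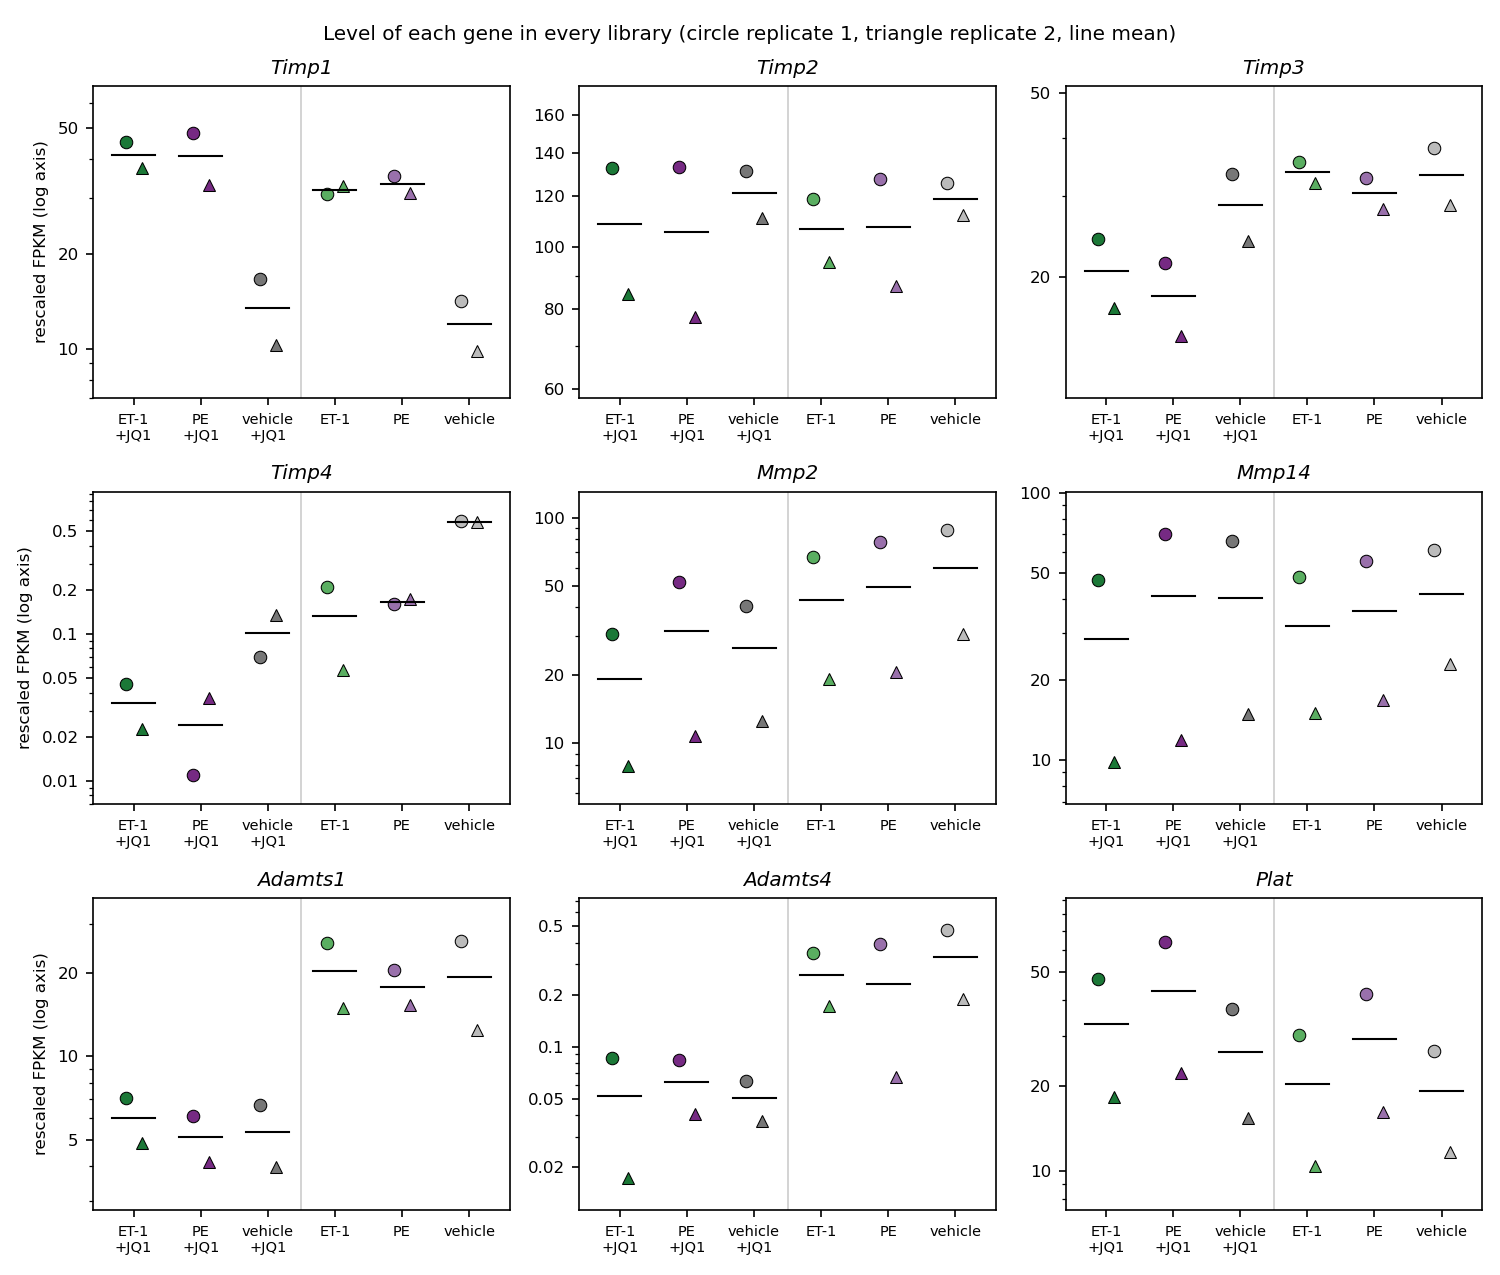
Level of each of the 9 genes in every library, in rescaled FPKM on log axes that differ between panels, for the 6 groups (JQ1 groups left of the line, DMSO groups right of it). Circles are replicate 1, triangles replicate 2 and bars the mean of 2 libraries; Timp1 stands at 30.9 to 48.3 in the 8 agonist libraries and at 9.85 to 16.6 in the 4 vehicle libraries.

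Few of the genes were called in any comparison. Calls below are those of limma at a Benjamini-Hochberg adjusted p under 0.05 over all genes tested, from a fit of 6 group means, unless the replicate block is named. That is the same fit with the replicate number as a further term, since same-numbered libraries deviated together. ET-1 against vehicle called 1 of the 7 tested genes (2.87% of all genes tested), or 2 with the block (18.4% of all). PE against vehicle called 1 (6.07%), or 2 with the block (24%). ET-1 under JQ1, against vehicle plus JQ1, called 1 (1.36%), or 2 with the block (11.6%), and PE under JQ1 called 1 (0.718%), or 3 with the block (12.1%). JQ1 against DMSO called 1 of 7 in vehicle (32%), 1 in ET-1 (37.5%) and 2 in PE (36.5%). With the block JQ1 called 3 in vehicle (52.8%), 4 in ET-1 (56.9%) and 4 in PE (56.4%). The shares of these genes under JQ1 lay below the background without the block and near it with the block. PE against ET-1 called none of the 7 by limma (0.00725% of all genes, with and without the block), none at an unadjusted p under 0.05 without the block and 1 with it. The differences of the JQ1 effect between an agonist and vehicle called none of the 7 either. Over all genes they called 0% without the block, and 0.0363% for ET-1 and 0.0725% for PE with it. At an unadjusted p under 0.05 they gave none of the 7 without the block and 1 of 7 with it, for each agonist. The 2 agonist comparisons share their vehicle libraries, as do those under JQ1, so their values stand side by side and are not independent.

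Timp1, which encodes a soluble inhibitor of most metalloproteinases, was the gene that rose with both agonists. It lies at chrX:1364786-1369384 on the minus strand of rn6 and is annotated with 6 exons, inside Syn1 on the opposite strand, which was listed at 0 to 0.09 FPKM. Timp1 stood at 30.9 and 32.7 rescaled FPKM in ET-1 libraries and at 35.2 and 31.2 in PE libraries, against 14.2 and 9.85 in vehicle libraries. Every agonist library was above both vehicle libraries, and the groups did not overlap. ET-1 raised it by a log2 difference of 1.39 ± 0.27 (SE, n = 2 per group, limma adjusted p = 0.04), which was 2.17-fold within replicate 1 and 3.32-fold within replicate 2. PE raised it by 1.45 ± 0.27 (limma adjusted p = 0.025), with folds of 2.48 and 3.17.

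The rise of Timp1 was also present under JQ1. Its level was 45.1 and 37.4 rescaled FPKM with ET-1 plus JQ1 and 48.3 and 33.1 with PE plus JQ1, against 16.6 and 10.3 with vehicle plus JQ1. Again every agonist library was above both of its vehicle libraries. The log2 differences under JQ1 were 1.61 ± 0.27 for ET-1 (limma adjusted p = 0.035) and 1.57 ± 0.27 for PE (limma adjusted p = 0.05, just under the threshold before rounding). JQ1 itself, against DMSO, gave log2 differences of 0.14 in vehicle, 0.37 in ET-1 and 0.27 in PE, each with an SE of 0.27 and none called (limma adjusted p of 0.72, 0.32 and 0.47). The JQ1 effect differed from that in vehicle by 0.22 ± 0.38 in ET-1 and by 0.13 ± 0.38 in PE, with limma adjusted p = 1 for each. Ordered by mean, the groups ran ET-1 plus JQ1 (41.2 ± 5.42 rescaled FPKM, SD, n = 2), PE plus JQ1 (40.7 ± 10.8), PE (33.2 ± 2.78), ET-1 (31.8 ± 1.3), vehicle plus JQ1 (13.5 ± 4.47) and vehicle (12.02 ± 3.08). No tested difference among the 4 agonist groups, or between the 2 vehicle groups, was called.

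The Timp1 calls without the block rested on every library. When any 1 library of the groups compared was left out, none of the 4 agonist comparisons was called, with adjusted p of 0.088 to 0.23 for ET-1, 0.058 to 0.15 for PE, 0.068 to 0.22 for ET-1 under JQ1 and 0.086 to 0.29 for PE under JQ1. The log2 differences then ranged from 1.13 to 1.94. With the replicate block the adjusted p fell to 0.0026 for ET-1, 0.0016 for PE, 0.0031 for ET-1 under JQ1 and 0.0039 for PE under JQ1, and all 4 comparisons were called whichever library was left out, at 0.04 or less. Without the block, all 4 calls were also lost on the deposited FPKM (adjusted p of 0.072 to 0.12) and in fits of only the libraries compared (0.11 to 0.43). The call for PE was kept without a filter on low values and those for ET-1 (0.054), ET-1 under JQ1 (0.064) and PE under JQ1 (0.085) were not, and the last was lost under 3 further settings (0.051 to 0.063).

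Timp2, an inhibitor that also serves MMP14 as a partner, was the most abundant of the 4 TIMPs in every library. It stood at 133 and 84.3 rescaled FPKM with ET-1 plus JQ1, 133 and 77.6 with PE plus JQ1, 131 and 111 with vehicle plus JQ1, 119 and 94.5 with ET-1, 127 and 86.7 with PE, and 126 and 112 with vehicle. Replicate 1 was higher in every group, and all groups overlapped. Its log2 differences from -0.24 to 0.02 were not called in any comparison, with or without the block. The gene lies at chr10:107338465-107386072 on the minus strand (5 exons) and shares its span with Cep295nl on the same strand, which was listed at 0.22 to 0.457 FPKM.

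Timp3, the matrix-bound inhibitor, was lower with JQ1 in the agonist-treated cells. Timp3 stood at 21.4 and 14.9 rescaled FPKM with PE plus JQ1, against 32.7 and 28.1 with PE, and at 24.2 and 17.1 with ET-1 plus JQ1, against 35.5 and 31.9 with ET-1. In both agonists the JQ1 libraries were below the DMSO libraries without overlap, but with vehicle plus JQ1 it stood at 33.4 and 24.0, against 38.1 and 28.6 with vehicle, and these overlapped. With PE it fell by 0.75 ± 0.25 on the log2 scale (SE, n = 2 per group, limma adjusted p = 0.047, with the block 0.00048). With ET-1 the log2 difference of -0.71 ± 0.25 missed the threshold without the block (limma adjusted p = 0.055) and passed it with the block (0.00059). In vehicle it was -0.22 ± 0.25 (limma adjusted p = 0.54, with the block 0.097). The difference between these JQ1 effects was itself not called: -0.49 ± 0.35 for ET-1 and -0.53 ± 0.35 for PE, each against vehicle (limma adjusted p = 1 for each, with the block 0.27 and 0.21).

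Under JQ1 the agonists gave Timp3 log2 differences of -0.46 for ET-1 and -0.65 for PE against vehicle plus JQ1, which passed limma's threshold only with the block (adjusted p = 0.026 and 0.01, against 0.38 and 0.25 without it). With the block and a library left out, the call for ET-1 held in 1 of 4 fits (adjusted p up to 0.21) and that for PE in 2 of 4 (up to 0.089). With the block and no filter on low values the call for ET-1 was lost (0.057) and that for PE was kept (0.026). Without JQ1 neither agonist moved Timp3 past the threshold (0.03 and -0.12). The Timp3 call with PE was lost without PE replicate 1 (adjusted p = 0.19), without PE replicate 2 (0.093) and without PE plus JQ1 replicate 2 (0.25). It was also lost under 5 other settings (0.052 to 0.11). Without ET-1 plus JQ1 replicate 1, the JQ1 difference in ET-1 passed (0.04). The summed fibroblast markers were also lower with JQ1, but in another order over the conditions. Within replicates 1 and 2 they were at 0.66 and 0.56 of the DMSO level in PE. They were at 0.58 and 0.52 in ET-1 and at 0.49 and 0.45 in vehicle. Timp3 fell least in vehicle, to 0.88 and 0.84 of its DMSO level, against 0.66 and 0.53 in PE. The mural and smooth muscle sum was at 0.84 and 0.56 of its DMSO level in PE. In ET-1 that sum was at 0.91 and 0.76, and in vehicle at 1.01 and 0.89. The value in vehicle was carried by Tagln, at 635 and 318 rescaled FPKM with vehicle plus JQ1, against 553 and 268 with vehicle. Every other marker of that list was lower with JQ1 in both replicates in vehicle. The part of the fibroblast or the mural and smooth muscle signal in the Timp3 result was not tested. In bulk RNA, fewer cells of a type and less RNA per cell cannot be told apart. Timp3 lies at chr7:23544215-23594133 on the minus strand (7 exons), inside Syn3 on the opposite strand, which was listed at 0 to 0.109 FPKM.

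Timp4, the TIMP best known from the heart, was scarce in these cultures. It was listed at 0.0457 and 0.0225 rescaled FPKM with ET-1 plus JQ1, 0.0111 and 0.037 with PE plus JQ1, 0.0697 and 0.134 with vehicle plus JQ1, 0.209 and 0.0573 with ET-1, 0.16 and 0.173 with PE, and 0.586 and 0.58 with vehicle. The vehicle libraries were the highest of the 12. Timp4 was fitted by limma with no filter on low values, on the log2(value + 0.5) scale, which understates the change of low genes. Log2 differences were -0.78 ± 0.11 for ET-1 (limma adjusted p = 0.022), -0.70 ± 0.11 for PE (0.021) and -0.85 ± 0.11 for JQ1 in vehicle (0.0021). The same fit did not call JQ1 in ET-1 (-0.24, limma adjusted p = 0.18) or in PE (-0.35, 0.06). Nor did it call ET-1 under JQ1 (-0.17, 0.61) or PE under JQ1 (-0.20, 0.56). Timp4 lies at chr4:147156948-147163467 on the minus strand (5 exons), inside Syn2 on the opposite strand, which was higher than Timp4 at 0.759 to 2.98 FPKM. The sources used here do not give the strand setting of the quantification, so reads of Timp4 and of this antisense partner cannot be told apart.

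Summed over the 4 inhibitors, the TIMP level lay between 126 and 203 rescaled FPKM in every library. Timp1 made up 22.3 and 26.9% of the sum with ET-1 plus JQ1, 23.8 and 26.3% with PE plus JQ1, and 9.18 and 7.1% with vehicle plus JQ1. Without JQ1 its share was 16.7 and 20.6% with ET-1 and 18.0 and 21.4% with PE, against 7.96 and 6.52% with vehicle. Timp3 made up 11.98 and 12.3% with ET-1 plus JQ1 and 10.6 and 11.9% with PE plus JQ1, and 16.5 to 21.3% in the other 8 libraries. Timp2 held 59.3 to 76.3% throughout, so the makeup of the inhibitor pool shifted towards Timp1 with both agonists while Timp2 remained its largest part. These shares are descriptions, with no test.

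**Figure D2:**
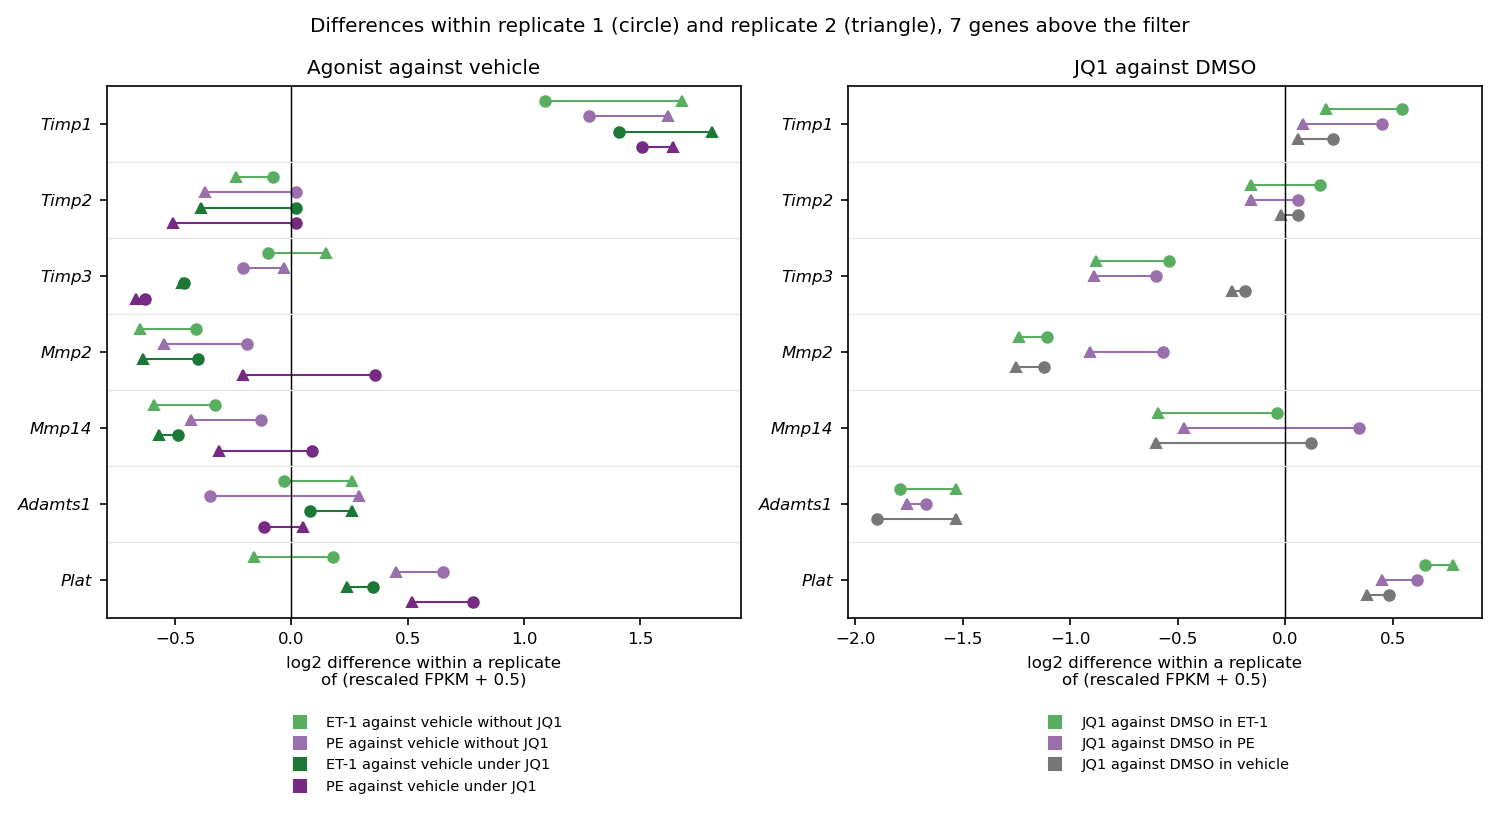
Log2 difference of each of the 7 tested genes within replicate 1 (circle) and within replicate 2 (triangle), on the log2(rescaled FPKM + 0.5) scale, for the 4 agonist comparisons (left) and the 3 JQ1 comparisons (right), with a line joining the replicates. Timp1 lies above 0 in both replicates of all 4 agonist comparisons and Adamts1, Timp3 and Mmp2 below 0 in both replicates of all 3 JQ1 comparisons; the joined points of Mmp14 cross 0 with JQ1 in vehicle and in PE.

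Adamts1, a secreted protease of versican and aggrecan, fell with JQ1 whatever the agonist. It stood at 7.08 and 4.86 rescaled FPKM with ET-1 plus JQ1, against 25.6 and 15.0 with ET-1. The values were 6.11 and 4.15 with PE plus JQ1, against 20.5 and 15.3 with PE. With vehicle plus JQ1 they were 6.66 and 3.98, against 26.2 and 12.4 with vehicle. All 6 JQ1 libraries were below all 6 DMSO libraries, and within each replicate the JQ1 level was 0.25 to 0.32 of the DMSO level. On the log2 scale Adamts1 fell by 1.71 ± 0.42 in vehicle (SE, n = 2 per group, limma adjusted p = 0.017), fell by 1.66 ± 0.42 in ET-1 (0.016) and fell by 1.71 ± 0.42 in PE (0.014). With the replicate block the adjusted p was 7e-05, 6e-05 and 5.5e-05.

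The agonists left Adamts1 within the spread of the libraries: log2 differences were 0.11 for ET-1 and -0.03 for PE, and 0.17 and -0.03 under JQ1, with none called. The JQ1 effect differed from that in vehicle by 0.06 ± 0.59 with ET-1 (limma adjusted p = 1). Without vehicle replicate 1 the JQ1 call in vehicle was lost (log2 difference -1.19, adjusted p = 0.095), as it was without vehicle plus JQ1 replicate 2 (-1.38, 0.099). In ET-1 it was lost without ET-1 replicate 1 (0.1) and without ET-1 plus JQ1 replicate 2 (0.091), and in PE without PE replicate 1 (0.079) and without PE plus JQ1 replicate 2 (0.084). With the block every one of these fits kept the call, at 0.0011 or less. In a fit of only the libraries compared the call in vehicle was lost (0.06). Adamts1 lies at chr11:25342126-25350974 on the minus strand of rn6 (9 exons).

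Adamts4, a related aggrecan- and versican-cleaving enzyme at chr13:89622632-89634419 on the plus strand (9 exons), was listed at 0.0173 to 0.0855 rescaled FPKM in the 6 JQ1 libraries and at 0.0662 to 0.473 in the 6 DMSO libraries. Within each replicate and treatment the JQ1 library was the lower. At these levels the gene was below the filter. In the fit with no filter JQ1 gave log2 differences of -0.57 in vehicle, -0.46 in ET-1 and -0.34 in PE (limma adjusted p = 0.14, 0.23 and 0.38), and with the block 0.022, 0.048 and 0.12.

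The metalloproteinases Mmp2 and Mmp14 differed more between the replicates of every group than they did within a replicate in any comparison. Mmp2, or gelatinase A, stood at 30.5 and 7.91 rescaled FPKM with ET-1 plus JQ1, against 66.5 and 19.3 with ET-1. It stood at 52.0 and 10.8 with PE plus JQ1, against 77.7 and 20.7 with PE, and at 40.5 and 12.6 with vehicle plus JQ1, against 88.4 and 30.6 with vehicle. In every group replicate 1 was 2.89 to 4.81 times replicate 2, so all groups overlapped, but within each replicate the JQ1 library was lower. Its ratio of JQ1 to DMSO was 0.46 and 0.41 in vehicle, 0.46 and 0.41 in ET-1, and 0.67 and 0.52 in PE. The log2 differences for JQ1 were -1.18 ± 1.12 in vehicle, -1.17 ± 1.12 in ET-1 and -0.74 ± 1.12 in PE (SE, limma adjusted p = 0.45, 0.44 and 0.64), none called. With the replicate block the SE was 0.14 and the adjusted p 0.00038, 0.00032 and 0.0031, and these calls held whichever library was left out (0.026 or less). ET-1 against vehicle gave -0.53 (limma adjusted p = 0.85, with the block 0.041). That block call was lost in 3 of the 4 fits with a library left out (adjusted p up to 0.26) and with no filter on low values (0.077).

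The markers of fibroblasts moved with Mmp2. Their sum within each replicate was 0.49 and 0.45 of the DMSO level with JQ1 in vehicle, 0.58 and 0.52 in ET-1 and 0.66 and 0.56 in PE, and replicate 1 was 4.12 to 5.26 times replicate 2. The sum ranged over 109 to 508 rescaled FPKM with ET-1 plus JQ1, 121 to 636 with PE plus JQ1, 147 to 662 with vehicle plus JQ1, 212 to 878 with ET-1, 218 to 959 with PE and 325 to 1338 with vehicle. Of the defining markers, Tcf21 was at 0.491 to 8.40 and Pdgfra at 0.12 to 3.75 in the 12 libraries, and Fap was at 0 in replicate 2 of the 3 JQ1 groups. The part of the fibroblast signal in the Mmp2 result was not tested. Mmp2 lies at chr19:15542765-15570611 on the minus strand (13 exons).

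Mmp14, the membrane-type metalloproteinase that activates pro-MMP2, stood at 47.1 and 9.84 rescaled FPKM with ET-1 plus JQ1, 70.2 and 11.9 with PE plus JQ1, and 66.2 and 14.9 with vehicle plus JQ1. Without JQ1 it stood at 48.3 and 15.0 with ET-1, 55.5 and 16.7 with PE, and 60.9 and 22.8 with vehicle. Replicate 1 was 2.67 to 5.9 times replicate 2, and every group overlapped every other. Within replicate 1 the ratio of JQ1 to DMSO was 1.09 in vehicle, 0.98 in ET-1 and 1.27 in PE, and within replicate 2 it was 0.65, 0.65 and 0.71, so the replicates differed in direction in vehicle and PE. No comparison called Mmp14, with or without the block (lowest limma adjusted p 0.18, with the block). It lies at chr15:33074441-33083655 on the plus strand (10 exons).

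Plat stood at 47.5 and 18.3 rescaled FPKM with ET-1 plus JQ1, against 30.1 and 10.4 with ET-1, and at 64.2 and 22.2 with PE plus JQ1, against 42.0 and 16.1 with PE. With vehicle plus JQ1 it stood at 37.3 and 15.4, against 26.6 and 11.7 with vehicle. Within each replicate the JQ1 library was the higher, by 1.31 to 1.76 times, and PE was above vehicle, by 1.58 and 1.38 times without JQ1 and 1.72 and 1.44 times under it. Replicate 1 was 2.27 to 2.89 times replicate 2, and all groups overlapped. No comparison of Plat was called without the block (limma adjusted p of 0.53 to 1). With the block 5 were: JQ1 in vehicle (log2 difference 0.43, adjusted p = 0.0054), in ET-1 (0.72, 0.00038) and in PE (0.53, 0.0018), PE (0.55, 0.0062), and PE under JQ1 (0.65, 0.0081). With a library left out and the block, the JQ1 calls held in every fit (0.042 or less), the PE call in 3 of 4 (up to 0.057) and that under JQ1 in 2 of 4 (up to 0.061). The fibroblast marker sum moved the other way, lower with JQ1 and with PE in both replicates. With PE under JQ1 its members were split. Col3a1 and Postn were lower in both replicates, Pdgfra, Tcf21, Dcn and Lum were higher in both, and the others were mixed. Dcn, at 15.6 and 1.39 rescaled FPKM with PE plus JQ1 against 10.8 and 1.12 with vehicle plus JQ1, was also higher with PE without JQ1. The cardiomyocyte marker sum was higher with JQ1 in both replicates in vehicle, ET-1 and PE, as Plat was. That list was split, however. In vehicle, ET-1 and PE alike, Tnnt2 and Mybpc3 were higher with JQ1 in both replicates, and Tnni3, Mb and Ryr2 were lower. Myh6, Myh7, Actn2 and Pln differed between conditions or replicates. Tnnt2 was the largest member (10410 and 14800 rescaled FPKM with vehicle plus JQ1, against 5089 and 6813 with vehicle). With PE, without and under JQ1, the cardiomyocyte sum was higher in replicate 1 and lower in replicate 2. Between replicates, Plat and the fibroblast sum were both higher in replicate 1 in every group, and the cardiomyocyte sum was lower. The part of either cell type in the Plat result was not tested. Plat, at chr16:74098260-74122889 on the minus strand (14 exons), is uncertain in 1 respect: LOC100910418, another gene on chromosome 16, had 70.8 to 78.7% of its level in every library, and whether they share reads was not tested.

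**Figure D3:**
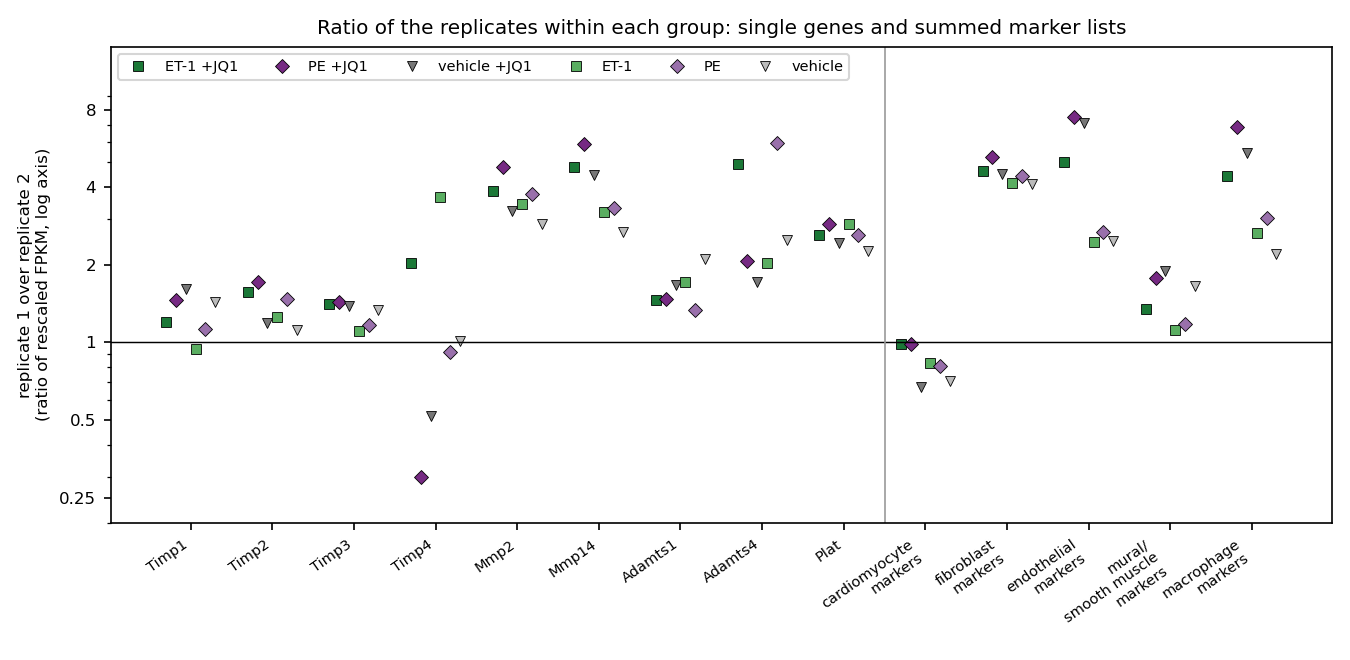
Ratio of replicate 1 to replicate 2 within each of the 6 groups, on a log axis, for the 9 genes and for the summed markers of 5 cell types. Mmp2, Mmp14 and Plat lie between 2.27 and 5.9 on the side of the fibroblast sum (4.12 to 5.26), and Timp1, Timp2 and Timp3 between 0.94 and 1.71.

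The replicates stood apart by gene. The ratio of replicate 1 to replicate 2 was 0.94 to 1.61 for Timp1, 1.12 to 1.71 for Timp2, 1.11 to 1.44 for Timp3 and 1.34 to 2.11 for Adamts1, and above 2 in every group for Mmp2, Mmp14 and Plat. The sum of cardiomyocyte markers went the other way (0.67 to 0.99), and those of endothelial cells (2.46 to 7.48) and macrophages (2.2 to 6.82) went with fibroblasts. Of the low endothelial markers, Kdr was higher in replicate 2 in every group but PE plus JQ1 (0.703 and 1.455 in vehicle). Timp1 was higher with agonists within both replicates, while the fibroblast sum was 0.66 and 0.65 of vehicle with ET-1 and 0.72 and 0.67 with PE. The mural and smooth muscle sum was 1.19 and 1.76 times vehicle with ET-1 and 1.11 and 1.57 times with PE. This was the direction of Timp1, but the list was split. With ET-1, Tagln, Cnn1, Acta2 and Cspg4 were higher in both replicates, Abcc9, Myh11, Rgs5 and Kcnj8 were lower, and Pdgfrb was mixed. With PE, Cnn1, Acta2 and Cspg4 were higher in both, Abcc9 and Myh11 were lower, and the others were mixed. Tagln was the largest member (553 and 268 rescaled FPKM in vehicle). Under JQ1 the mural and smooth muscle sum was 1.08 and 1.51 times vehicle plus JQ1 with ET-1 and 0.93 and 0.99 times with PE. Its part in the Timp1 result was not tested. The Adamts1 fall with JQ1 (0.25 to 0.32) was accompanied by lower sums of fibroblast (0.45 to 0.66), endothelial (0.17 to 0.49) and macrophage markers (0.15 to 0.4), whose part was not tested.

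Across the 12 libraries, on log2(rescaled FPKM + 0.5), Mmp2 and Mmp14 correlated at r = 0.91, Timp2 and Mmp14 at 0.91, Timp3 and Adamts1 at 0.82, and Timp1 and Mmp2 at -0.03. These are descriptions over libraries that share groups and replicate numbers. The tested genes most like Timp1 by Pearson r were Litaf (0.982), Anxa2 (0.959), which encodes the phospholipid-binding annexin A2, and Mfge8 (0.959), which encodes a secreted milk fat globule protein. Those most like Adamts1 were Btbd19 (0.994), Nkd2 (0.992), which encodes a Wnt pathway inhibitor, and Cav2 (0.991), which encodes caveolin-2. Those most like Timp3 were LOC301444 (0.962), Dbi (0.956), which encodes the acyl-CoA-binding protein, and Ptgfr (0.953), which encodes the prostaglandin F receptor.

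In the wider family of metalloproteinases most calls were with JQ1, as they were over all genes tested. Of 46 other MMP, ADAM, ADAMTS and astacin-type genes, 45 were in the files and 27 were tested. JQ1 called 2 higher and 7 lower in vehicle, 2 higher and 6 lower in ET-1, and 2 higher and 8 lower in PE, with medians of -0.40, -0.24 and -0.26 on the log2 scale against 0.012, 0.026 and 0.011 over all genes tested. So 9, 8 and 10 of the 27 were called, where 32, 37.5 and 36.5% of all genes tested were. With the block JQ1 called 3 higher and 14 lower in vehicle, 2 and 14 in ET-1, and 4 and 13 in PE, where 52.8, 56.9 and 56.4% of all genes were called. Mmp23 (a metalloproteinase of the cell membrane) stood at 1.65 and 0.796 rescaled FPKM with vehicle plus JQ1, against 11.2 and 5.48 with vehicle, a log2 difference of -2.32 ± 0.51 (limma adjusted p = 0.01), and the log2 differences in ET-1 and PE were -2.17 and -2.32 (0.011 and 0.0088). Tll1, a tolloid-like protease that processes procollagens, fell with log2 differences of -1.83 in vehicle, -1.67 in ET-1 and -1.83 in PE (limma adjusted p = 0.0051, 0.006 and 0.0042). Adamts12, Adamts7 and Adamts14, a procollagen N-proteinase, each fell with JQ1 in all 3 conditions. The log2 differences in vehicle, ET-1 and PE were -1.52, -1.17 and -1.37 for Adamts12 (limma adjusted p of 0.0013 to 0.0029), -1.46, -1.48 and -1.41 for Adamts7 (0.0077 to 0.01), and -1.46, -1.40 and -1.47 for Adamts14 (0.0091 to 0.011). Adamts14 was low, at 0.636 to 1.40 rescaled FPKM in the DMSO libraries and 0.0172 to 0.0841 in the JQ1 libraries. It passed the filter only through DMSO libraries, where it was higher.

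Of this list 1 gene was called with an agonist. Adamts19 stood at 4.98 and 4.70 rescaled FPKM with PE, against 1.58 and 2.36 with vehicle (log2 difference 1.13 ± 0.19, limma adjusted p = 0.018). JQ1 lowered it: it stood at 0.539 and 0.419 with PE plus JQ1, against those PE values, with log2 differences of -2.45 in PE, -1.85 in ET-1 and -1.67 in vehicle (limma adjusted p = 0.00015, 0.00031 and 0.00072). Adamts19 was below 1 rescaled FPKM in every JQ1 library and passed the filter only through its DMSO libraries. ET-1 called none of the 27 by limma (2.87% of all genes tested). At an unadjusted p under 0.05 it gave 4, against 2800 of all 13793 genes. With the block it called 1 higher and 6 lower (18.4% of all). PE called 1 higher (6.07% of all), and with the block 2 higher and 6 lower (24%). Under JQ1 neither agonist called any (1.36% of all genes for ET-1 and 0.718% for PE). At an unadjusted p under 0.05 there were 4 for ET-1 and 3 for PE, against 2355 and 2246 of all genes. With the block there were 3 lower for ET-1 (11.6% of all) and 1 higher and 3 lower for PE (12.1%).

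Regulators of the plasminogen system and of pericellular proteolysis (27 genes, 26 in the files, 20 tested) were also called mainly with JQ1: 1 higher and 3 lower in vehicle, 2 and 2 in ET-1, and 2 and 3 in PE, with medians of -0.26, -0.41 and -0.48. These are 4, 4 and 5 of the 20, where 32, 37.5 and 36.5% of all genes tested were called. With the block JQ1 called 2 higher and 9 lower in vehicle, 3 and 9 in ET-1, and 2 and 10 in PE, where 52.8, 56.9 and 56.4% of all genes were called. Plaur, the receptor that holds urokinase at the cell surface, stood at 0.795 and 0.586 rescaled FPKM with PE plus JQ1, against 5.20 and 4.28 with PE, with log2 differences of -2.14 in PE, -1.82 in ET-1 and -1.61 in vehicle (limma adjusted p = 0.0027, 0.0053 and 0.011). Adamtsl2, an ADAMTS-like matrix protein with no protease domain, fell with log2 differences of -2.73 in vehicle, -2.30 in ET-1 and -2.09 in PE (0.0052, 0.0087 and 0.014). Serpini1, or neuroserpin, an inhibitor of tissue-type plasminogen activator, stood at 4.05 and 2.62 with PE plus JQ1, against 0.34 and 0.096 with PE, and rose with JQ1 by 2.21 in vehicle, 2.20 in ET-1 and 2.41 in PE (0.00097, 0.00066 and 0.00052). It was below 1 rescaled FPKM in every DMSO library and passed the filter only through the JQ1 libraries, where it was high. Plaur, at 0.0988 to 1.31 in the JQ1 libraries, needed its higher DMSO libraries to pass. Being tested was thus not independent of these differences. Thbs1, encoding thrombospondin-1, rose with PE to 93.0 and 128, against 50.05 and 29.5 with vehicle (1.49 ± 0.35, limma adjusted p = 0.048). With ET-1 it stood at 92.8 and 113 (1.40 ± 0.35), which passed limma's threshold only with the block (adjusted p = 0.031, against 0.075 without it). ET-1 under JQ1 gave 1.80, also called only with the block (0.019, against 0.053). Thbs1 fell with JQ1 in vehicle (-1.16, limma adjusted p = 0.037) and in PE (-1.43, 0.014). Cst3, encoding the cysteine protease inhibitor cystatin C, rose by 0.58 with JQ1 in ET-1 (limma adjusted p = 0.0052), by 0.56 with JQ1 in PE (0.0062) and by 0.63 with ET-1 under JQ1 (0.044). Its log2 differences of 0.31 with JQ1 in vehicle and 0.47 with PE under JQ1 passed limma's threshold only with the block. Their adjusted p was 0.041 and 0.031 with it, against 0.069 and 0.1 without it.

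ET-1 called none of the 20 regulators by limma (2.87% of all genes tested). At an unadjusted p under 0.05 it gave 3, against 2800 of all 13793 genes. With the block it called 4 higher and 3 lower (18.4% of all). PE called 1 higher (6.07% of all), and with the block 4 higher and 2 lower (24%). Under JQ1 ET-1 called 1 higher (1.36% of all), and with the block 5 higher and 1 lower (11.6%). Under JQ1 PE called none by limma (0.718% of all), with 3 at an unadjusted p under 0.05, against 2246 of all genes. With the block it called 3 higher and 1 lower (12.1% of all).

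Among the substrates of these proteases (24 matrix genes, 23 in the files, 20 tested), collagens, proteoglycans and glycoproteins were mostly not called. JQ1 called 1 higher and 1 lower in vehicle, 0 higher and 1 lower in ET-1, and 1 higher and 1 lower in PE, with medians of -0.60, -0.39 and -0.35, where 32, 37.5 and 36.5% of all genes tested were called. With the block JQ1 called 1 higher and 12 lower in vehicle, 1 and 12 in ET-1, and 2 and 11 in PE, where 52.8, 56.9 and 56.4% of all genes were called, a list of which several (Col1a1, Col1a2, Col3a1, Dcn, Lum and Postn) are also fibroblast markers. Of the 4 laminin chains tested, Lama4 and Lamc1 were called with JQ1 and with PE, and Lama2 and Lamb1 were not. Lama4 stood at 19.0 and 19.4 rescaled FPKM with PE plus JQ1, against 40.6 and 49.0 with PE, with log2 differences for JQ1 of -1.29 in vehicle, -1.46 in ET-1 and -1.19 in PE (limma adjusted p = 0.00088, 0.00036 and 0.00088). Lamc1 rose with JQ1 by 0.58 in vehicle and 0.46 in PE (0.016 and 0.035). PE raised both, Lamc1 by 0.83 ± 0.14 and Lama4 by 0.67 ± 0.15 (limma adjusted p = 0.018 and 0.046). ET-1 called none of the 20 by limma (2.87% of all genes tested). At an unadjusted p under 0.05 it gave 5, against 2800 of all 13793 genes. With the block it called 4 higher and 11 lower (18.4% of all genes called). PE called 2 higher (6.07% of all), Lama4 and Lamc1, and with the block 5 higher and 9 lower (24% of all). Under JQ1 neither agonist called any by limma (1.36% of all for ET-1 and 0.718% for PE). At an unadjusted p under 0.05 there were 2 for ET-1 and 3 for PE, against 2355 and 2246 of all genes. With the block ET-1 under JQ1 called 1 higher and 2 lower (11.6% of all) and PE under JQ1 called 4 higher and none lower (12.1% of all).

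**Figure D4:**
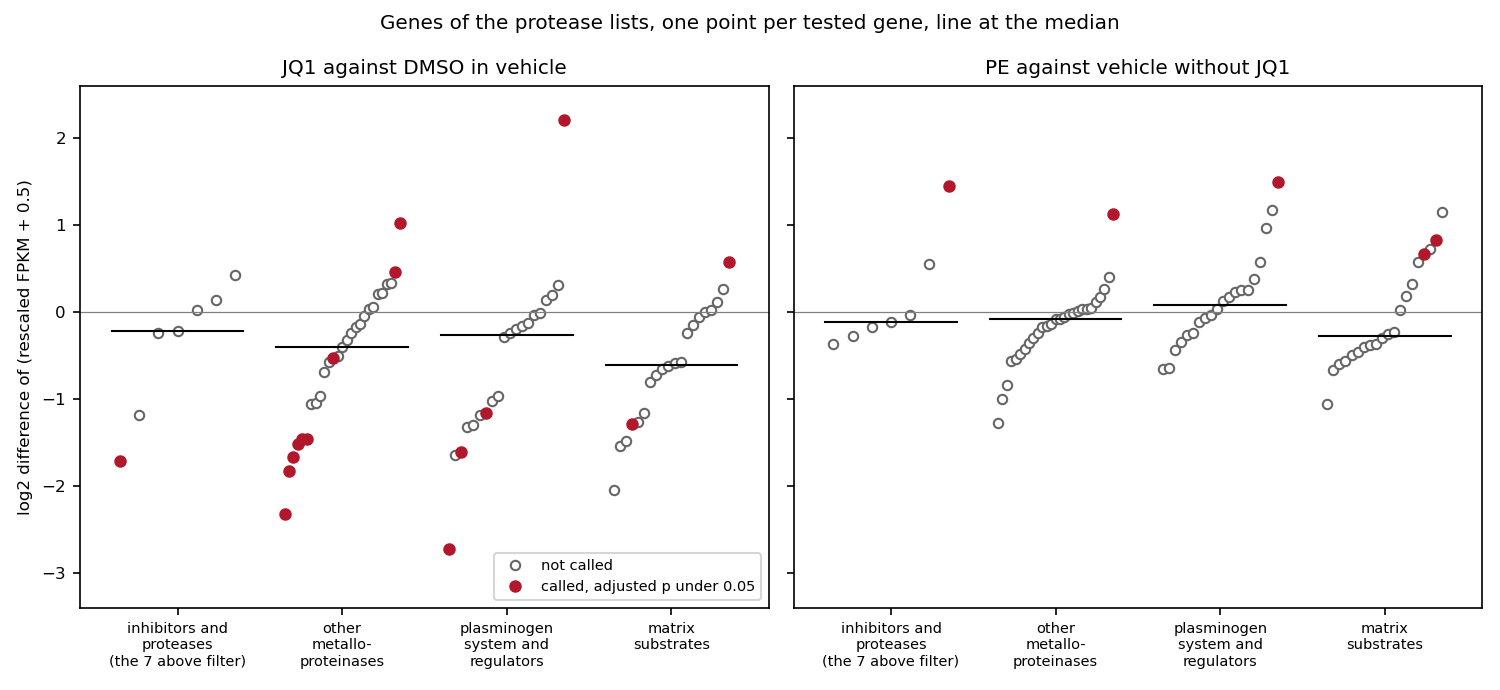
Log2 difference of every tested gene of the 7 inhibitors and proteases and of the 3 other lists (27, 20 and 20 genes), for JQ1 against DMSO in vehicle (left) and PE against vehicle (right), with 1 point per gene and a line at the list's median. Filled points were called by limma without the block and open points were not; on the left the 2 farthest calls are Adamtsl2 at -2.73 and Mmp23 at -2.32, and on the right the calls are Timp1, Adamts19, Thbs1, Lama4 and Lamc1.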

How the data were processed

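RNA of 12 libraries of rat cardiomyocytes was sequenced from a stranded, rRNA-depleted preparation. Per the submitters' processing notes, StringTie 1.3.4d, STAR 2.7.1a, Trim Galore 0.6.0 and build rn6 (Rnor_6.0) were used; no role or order is given, and neither read counts nor the strand setting are given in the sources used here. The deposited tables hold 41078 transcripts each, with FPKM and read coverage (a signal per base) computed by the authors. Coverage times length gave the depth, 2.34 to 2.97 Gb per library; with no read counts, no counting interval is given. Gene sums of FPKM were divided by scale factors of 0.873 to 1.127, found by the median of ratios over 15551 genes listed above 0 in every library. The 13793 genes that reached 1 rescaled FPKM in 2 or more libraries were tested with limma 3.58.1 in R 4.3.3 (trended, robust moderation) on log2(rescaled FPKM + 0.5), with Benjamini-Hochberg adjustment over all of them and a threshold of 0.05. On this scale the change of low genes is understated. The fit was tested on simulated data. Tables and figures were made with Python 3.11.15, pandas 2.3.3 and matplotlib 3.10.9.

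Replicate numbers are shared by all groups without a stated meaning. Deviations from the group means of same-numbered libraries correlated at 0.16 to 0.67 over the 15 pairs of groups, and on that ground, with none from the labels, the numbers were treated as pairs. The fit with the replicate number as a block is printed beside results whose call or count it alters (counts by more than 1.5 times).

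The 9 genes, the 3 further lists and the markers were chosen with earlier results of these data known. Named were every one of the 9, at most the 4 largest calls per list and comparison, the 3 genes most correlated with each called gene, and overlapping genes. Alternatives were other scalings, pseudocounts (0.1 and 1), filters, libraries and variance options. Protein sequences were not used here.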

Additional observations from a re-analysis of the deposited data

Results flagged for a closer look

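Adamts4 was the gene singled out, because its PE response took opposite directions without and with JQ1 in every replicate. On the log2(rescaled FPKM + 0.5) scale, PE against vehicle under JQ1 gave 0.05 and 0.01 in replicates 1 and 2, against -0.13 and -0.28 without JQ1, a difference of 0.24 between the means. This difference was not tested in the filtered fit, since Adamts4 was below 1 rescaled FPKM in all 12 libraries. In the limma fit with no filter it was 0.24 ± 0.34 (SE, adjusted p = 1, with the replicate block 0.77).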

How the results depend on the processing

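Each call of Timp1, Timp3 and Adamts1 kept its direction under every alternative run, and no called value changed sign. In all, 156 of 672 values with a library left out and 4 of 700 under other settings changed sign, each of a gene not called in that comparison. Counts of called genes among the 7 (among the 9 with no filter) are given in the order ET-1, PE, JQ1 in vehicle, JQ1 in ET-1, JQ1 in PE, ET-1 under JQ1 and PE under JQ1, and were 1, 1, 1, 1, 2, 1 and 1. With the replicate block they were 2, 2, 3, 4, 4, 2 and 3. On deposited FPKM, whose median over all genes was -0.106 with ET-1 and -0.129 with PE, against -0.015 and -0.01 after rescaling, they were 0, 0, 1, 1, 1, 0 and 0, and in fits of only the libraries compared 0, 0, 0, 1, 1, 0 and 0. With no filter on low values they were 1, 2, 2, 1, 1, 0 and 0, where the call with ET-1 was Timp4 in place of Timp1. With no filter and the block, a choice made after seeing the data, they were 2, 3, 5, 5, 4, 1 and 3. Without trend and robust moderation, and with the most covered transcript only, JQ1 in PE gave 1 and PE under JQ1 gave 0; a pseudocount of 1 gave 0 for PE under JQ1. Leaving out 1 library gave 0 for each agonist, without and under JQ1, 0 to 1 for JQ1 in vehicle, and 0 to 2 for JQ1 in ET-1 and in PE. With the block in the same fit it gave 1 to 2 for ET-1, for PE and for ET-1 under JQ1, 1 to 3 for PE under JQ1, 3 for JQ1 in vehicle, 4 to 5 in ET-1 and 4 in PE. The cause of these changes was not tested; fewer libraries in a fit leave fewer degrees of freedom. Over all genes the block raised the calls to 2537 with ET-1 and 3314 with PE, against 396 and 837 without it, and to 1601 and 1664 under JQ1, against 187 and 99. For JQ1 it gave 7279, 7849 and 7782 in vehicle, ET-1 and PE, against 4411, 5168 and 5030. Values near or under 1 FPKM, such as those of Timp4 and Adamts4, are limited by depth.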
